A study of Mus musculus with 6 samples.

Results

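Inner dynein arms are the motors that sit on the inner side of the outer doublet microtubules of motile cilia and set the shape of the ciliary bend. Most carry a single heavy chain, the ATPase that walks on the neighbouring doublet, whereas the f-type arm carries a pair of different heavy chains. DNALI1, the axonemal light intermediate chain, belongs to a subset of the single-headed arms. Like other axonemal dyneins, they are put together in the cytoplasm with the help of assembly factors, of which DNAAF5 is an example, before transport into the cilium.

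Transcripts of 9 inner dynein arm genes were examined among the 20483 genes of the deposited count table. They were picked by symbol, with earlier results of these data known, and all 9 were in the table (0 were absent). *Dnah1*, *Dnah3*, *Dnah6*, *Dnah7a*, *Dnah7b* and *Dnah12* encode heavy chains of the single-headed arms, *Dnah2* and *Dnah10* encode the heavy chains of the f-type arm, and *Dnali1* encodes the light intermediate chain. Single-cell RNA-Seq profiled tracheal epithelium cultured with its surface in air, from 3 *WT/WT* mice (WT1, WT2 and WT3) and 3 *MIS/MIS* littermates (MT1301, MT1306 and MT1383). The mice were on the C57BL/6 background and 12 weeks old, and *MIS/MIS* mice carry on both chromosomes a missense allele of *Dnaaf5* made by CRISPR-Cas9 editing of embryos, with no transgene or Cre. The table holds 23871 cells that the authors assigned to 16 cell types, of which Multiciliated1 (1108 cells), Multiciliated2 (857 cells), Multiciliated3 (2712 cells) and Multiciliated4 (146 cells) make up the 4823 multiciliated cells. Libraries held between 100961835 and 153326568 unique molecular identifiers (UMIs), which count captured transcript molecules. Levels are given as CPM, the UMIs of a gene per 1000000 UMIs, from UMIs summed over the cells of a type in each mouse. Because the assay captures transcript 3' ends, a CPM value is not divided by transcript length. Any effect of gene length on the levels was not tested.

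The labels of the multiciliated types were set against marker genes. *Foxj1*, the master regulator of motile cilia genes, averaged 345.9 CPM in Multiciliated3, 717 in Multiciliated2, 187 in Multiciliated4 and 70.8 in Multiciliated1. The sum of the 5 multiciliated markers (*Foxj1*, *Tppp3*, *Dynlrb2*, *Sec14l3* and *Ccdc153*) gave another order. It ranged over mice from 9143 to 10430 CPM in Multiciliated4 and from 5883 to 6896 in Multiciliated3. In Multiciliated2 it was 2121 to 2939 and in Multiciliated1 1262 to 2344. Early markers of the multiciliated lineage marked Multiciliated2, where the centriole amplification gene *Deup1* averaged 358 CPM against 13.9 in Multiciliated3. Multiciliated1 carried the basal keratin *Krt15* at 2315 CPM against 120 in Multiciliated3. The 5 secretory markers (*Scgb1a1*, *Scgb3a1*, *Scgb3a2*, *Bpifa1* and *Muc5b*) were high in both Multiciliated1 and Multiciliated2. Their sum ranged over mice from 519 to 4087 CPM in Multiciliated1 and 2462 to 5032 in Multiciliated2, against 98.4 to 344 in Multiciliated3. Multiciliated4 cells were shallow, with a median of 10197 UMIs against 26359.5 in Multiciliated3, their median mitochondrial share was 1.29% against 8.51%, and each mouse gave only 6 to 52 of them. Across the 6 libraries 67 cell barcodes occurred more than once.

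The genes are spread over the mouse genome (GENCODE M21, GRCm38). *Dnah1* (chr14:31260375-31323896, minus strand, 78 exons) and *Dnah12* (chr14:26693274-26891703, plus strand, 74 exons) share chromosome 14, and *Dnah7a* (chr1:53397006-53706784, minus strand, 66 exons) and *Dnah7b* (chr1:46066315-46373546, plus strand, 66 exons) share chromosome 1. *Dnah3* is at chr7:119922671-120095280, *Dnah6* at chr6:73017606-73221651, *Dnah2* at chr11:69420809-69549110 and *Dnali1* at chr4:125055338-125065703, all on the minus strand. *Dnah10* is at chr5:124725085-124834308 on the plus strand, on the chromosome that also carries *Dnaaf5* (chr5:139150223-139186510). The heavy chain transcripts encode between 3960 residues for *Dnah12* and 4591 for *Dnah10*, against 258 for *Dnali1*. *Dnah7a*, *Dnah7b* and the neighbouring *Dnah7c* are near copies, so that reads could be split between them. Of all 91-base windows of the longest coding transcript, 22.5% in *Dnah7a* and 27.1% in *Dnah7b* also occur in another copy. In the last 1000 bases, which a 3' assay reads, these shares were 19.1% and 12.6%. No annotated gene overlaps *Dnah7b* or *Dnah12*, and at their 3' ends *Dnah3*, *Dnah6* and *Dnali1* overlap a gene on the other strand.

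Because *Dnah7a* and *Dnah7b* are copies with different levels between cell types, their promoters are shown with that of *Dnah6*, which shares a motif with them. RefSeq sequences (GRCm38.p6) were found for 8 of the 9 genes, and *Dnah3* was not among them. Each line gives the 250 bases before the RefSeq start, 5' to 3' on the gene's strand. Capitals mark GTTGCC, the left arm of the X-box that RFX factors of ciliated cells bind, and a palindrome in which GTTGC and GCAAC stand 3 bases apart.
Dnah6: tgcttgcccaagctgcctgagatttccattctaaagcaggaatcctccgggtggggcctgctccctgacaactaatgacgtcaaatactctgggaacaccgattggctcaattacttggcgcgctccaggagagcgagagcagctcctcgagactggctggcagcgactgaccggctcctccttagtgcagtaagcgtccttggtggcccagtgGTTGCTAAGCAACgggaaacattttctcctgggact
Dnah7a: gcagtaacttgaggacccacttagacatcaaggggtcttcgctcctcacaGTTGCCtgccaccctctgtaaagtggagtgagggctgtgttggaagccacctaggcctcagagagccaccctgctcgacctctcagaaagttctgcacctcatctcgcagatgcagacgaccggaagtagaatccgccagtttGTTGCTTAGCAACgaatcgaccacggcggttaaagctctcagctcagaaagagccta
Dnah7b: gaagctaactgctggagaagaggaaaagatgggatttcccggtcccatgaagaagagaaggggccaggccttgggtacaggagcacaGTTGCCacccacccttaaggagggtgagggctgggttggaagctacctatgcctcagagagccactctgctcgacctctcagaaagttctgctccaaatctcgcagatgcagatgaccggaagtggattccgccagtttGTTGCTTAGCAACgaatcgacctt
These windows lie at chr6:73221632-73221881, chr1:53706785-53707034 (both minus strand) and chr1:46066603-46066852 (plus strand). The palindrome, chosen after the sequences had been read, starts 36, 57 and 24 bases before the start of *Dnah6*, *Dnah7a* and *Dnah7b*. It occurs in 3 of the 8 promoters and in 0.207% of all 32851 promoters of the same length, and as its own reverse complement it was read once for both strands. GTTGCC on either strand occurs in *Dnah7a*, *Dnah7b* and *Dnah10*, and in 10.4% of all promoters. The X-box was searched on both strands only as GTNNCC and GGNNAC with 2 bases between them (1.57% of all promoters). This form and the forkhead motif TGTTTAC (3.17%) were found in 0 of the 8. X-box forms with another gap or other letters were not searched, so whether the palindrome is such a form was not tested. The *Dnah7a* and *Dnah7b* windows match at 154 of 217 aligned bases (71.0%), with a longest identical run of 33 bases. That run includes the palindrome, so these copies are not independent occurrences of it, and its shares above are a description. The next most alike pair of promoters, *Dnah2* and *Dnah7b*, match at 35.9%. GENCODE places the start of *Dnah7b* (chr1:46066315) upstream of that whole window, so the window and its palindrome lie within the gene there.

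Inner dynein arm transcripts were concentrated in multiciliated cells, and among these in Multiciliated3. Their summed level was 930.6 ± 88.3 CPM (SD, n = 6 mice) in Multiciliated3, 611 ± 72.8 in Multiciliated4, 397 ± 57.8 in Multiciliated2 and 189 ± 37.3 in Multiciliated1. The ranges of the mice did not overlap between any neighbours in this order. In the 8 basal types the sum averaged 4.52 to 7.79 CPM, and in the secretory types 7.13 and 8.94. Neuroendocrine cells, 5 to 108 in a mouse, gave 22.3 ± 37.0 CPM, between 0 and 96.6, and ionocytes were measured in only 2 mice, at 37.6 and 2.33 CPM. The authors made the cell types by clustering the same cells on their transcripts, so the levels are a description and were not tested.

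Of the single-headed heavy chains, *Dnah12*, *Dnah6* and *Dnah3* gave the most UMIs in Multiciliated3. *Dnah12* measured 254, 214 and 228 CPM in WT1, WT2 and WT3, and 198, 280.2 and 261 in MT1301, MT1306 and MT1383. *Dnah6* averaged 175 ± 12.2 CPM and *Dnah3* 120 ± 17.6. *Dnah7b* followed at 58.3 ± 6.52, *Dnah1* at 42.2 ± 4.23 and *Dnah7a* at 24.7 ± 5.93. Of the f-type heavy chains, *Dnah2* averaged 26.2 ± 1.76 CPM and *Dnah10* 9.98 ± 4.52, the lowest mean among the 9 genes and, relative to its mean, the widest spread between mice. The light intermediate chain gene *Dnali1* averaged 235 ± 15.99 CPM. *Dnah12*, *Dnali1* and *Dnah6* gave 25.6%, 25.4% and 18.8% of the members' UMIs in Multiciliated3 as a mean over mice.

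**Figure D1:**
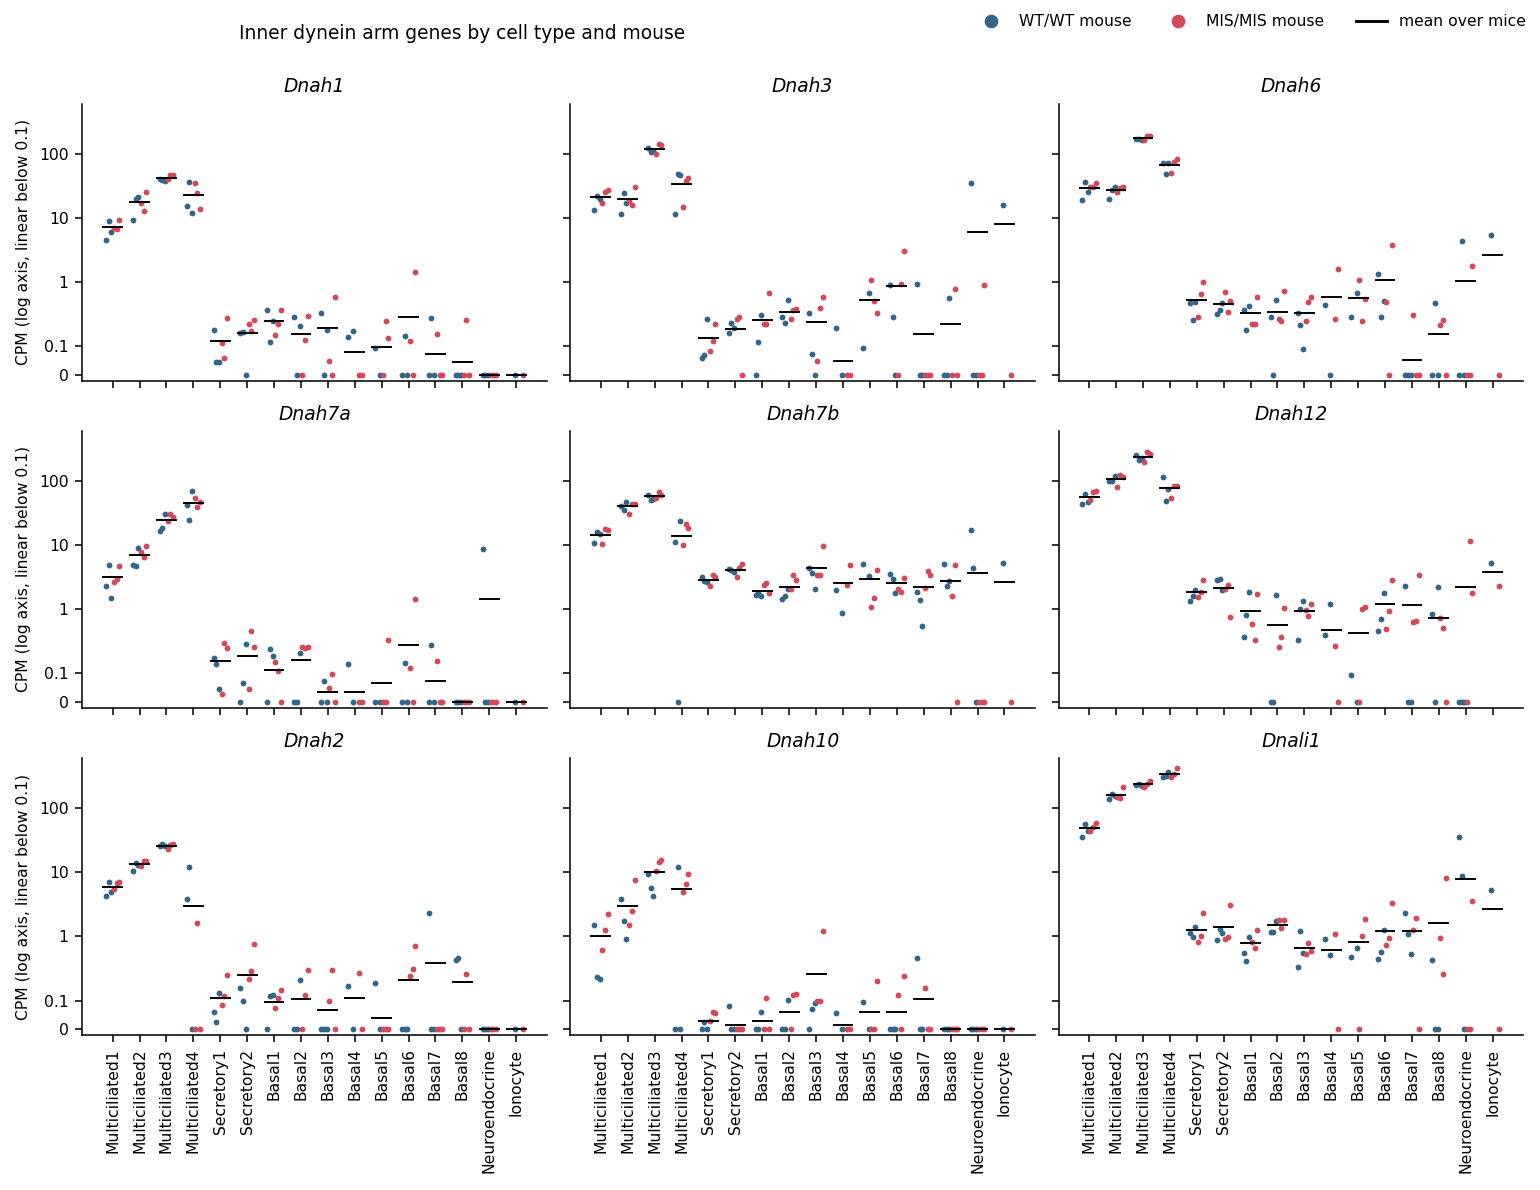
Level of each inner dynein arm gene (CPM, log axis, linear below 0.1) in the 16 cell types, with a point for each mouse with at least 5 cells of the type and a line at the mean. All 9 genes are highest in multiciliated types, and Dnah7b stays between 1.96 and 4.44 CPM on average in the others.

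The genes also appeared together in single cells. In Multiciliated3 a cell held UMIs of a median of 6 of the 9 genes, 87.2% of cells held at least 5, and 3 of 2712 cells held none. *Dnah12* was seen in 97.1% of these cells, *Dnali1* in 96.7%, *Dnah6* in 92.7%, *Dnah3* in 84.8%, *Dnah7b* in 73.6%, *Dnah1* in 63.5%, *Dnah2* in 47.2%, *Dnah7a* in 37.6% and *Dnah10* in 18.7%. In basal cells, which do not carry motile cilia and had nearly the same median depth (26312 UMIs), the shares ran from 0.216% for *Dnah10* to 2.62% for *Dnali1*, apart from *Dnah7b* at 7.002%. None of the 9 genes was seen in 86.7% of 11126 basal cells. With every cell thinned to 5000 UMIs the median Multiciliated3 cell held 3 of the genes.

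The genes did not share a single course over the multiciliated types. Multiciliated2, the type with the early markers, held *Dnah7b* at 68.7% and *Dnali1* at 67.8% of their Multiciliated3 levels, from the mean log2 ratio within mice. *Dnah2* (51.2%), *Dnah12* (44.8%) and *Dnah1* (39.9%) were intermediate, and *Dnah7a* and *Dnah10* were at 28.5% and 26.4%. *Dnah3* and *Dnah6* were lowest of the 9, at 15.8% and 15.5%. *Dnah6* measured 19.98, 27.7 and 30.9 CPM in Multiciliated2 of WT1, WT2 and WT3, and 25.4, 29.2 and 30.01 in MT1301, MT1306 and MT1383. Its Multiciliated3 levels, 162 to 191 CPM, lay far above these in every mouse. *Dnah7b* in contrast measured 40.3, 36.0 and 47.4 CPM in Multiciliated2 of the *WT/WT* mice and 31.0, 43.3 and 43.4 in the *MIS/MIS* mice, against 51.3 to 68.2 in Multiciliated3. All 9 genes were lower in Multiciliated2 than in Multiciliated3 in 6 of 6 mice. Secretory markers were also high in Multiciliated2, as given above, and their part in these levels was not tested.

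In Multiciliated1 the genes lay closer together, at 12.2% to 24.6% of their Multiciliated3 levels, except for *Dnah10* at 7.90%. The make-up of their UMIs there was near that of Multiciliated3, with *Dnah12* at 30.5%, *Dnali1* at 25.9%, *Dnah6* at 15.6% and *Dnah3* at 11.1% of the members' UMIs. In Multiciliated2, *Dnali1* took 40.6%, *Dnah6* 6.87% and *Dnah3* 4.90%. *Krt15* was high in Multiciliated1, as given above, and its part in these levels was not tested.

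Multiciliated4 differed from the others in the opposite direction for a pair of genes. *Dnali1* measured 309, 318 and 364 CPM in the *WT/WT* mice and 304, 338 and 420.5 in the *MIS/MIS* mice, above its Multiciliated3 level in 6 of 6 mice (log2 ratio 0.53 ± 0.12), and took 56.0% of the members' UMIs. *Dnah7a* measured 41.9, 24.4 and 71.2 CPM in the *WT/WT* mice and 54.8, 39.0 and 46.7 in the *MIS/MIS* mice, also above Multiciliated3 in 6 of 6 mice (log2 ratio 0.87 ± 0.43). Its near copy *Dnah7b* went the other way, at 27.0% of its Multiciliated3 level over the 5 mice with a UMI. *Dnah1*, *Dnah3*, *Dnah6* and *Dnah12* were at 49.2%, 24.6%, 37.6% and 31.2%, lower in 6 of 6 mice. Counts in this type were low. *Dnah7a* had 49 UMI-positive cells among the 146, with a mean of 1.55 UMIs in each, and *Dnah7b* had 25, with 1.12. Taken across mice, the *Dnah7a* ranges of Multiciliated4 and Multiciliated3 overlapped. *Dnah2* had 3 UMI-positive cells, and *Dnah10* had 7. The low depth and low mitochondrial share of these cells moved with these ratios, and their part was not tested.

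**Figure D2:**
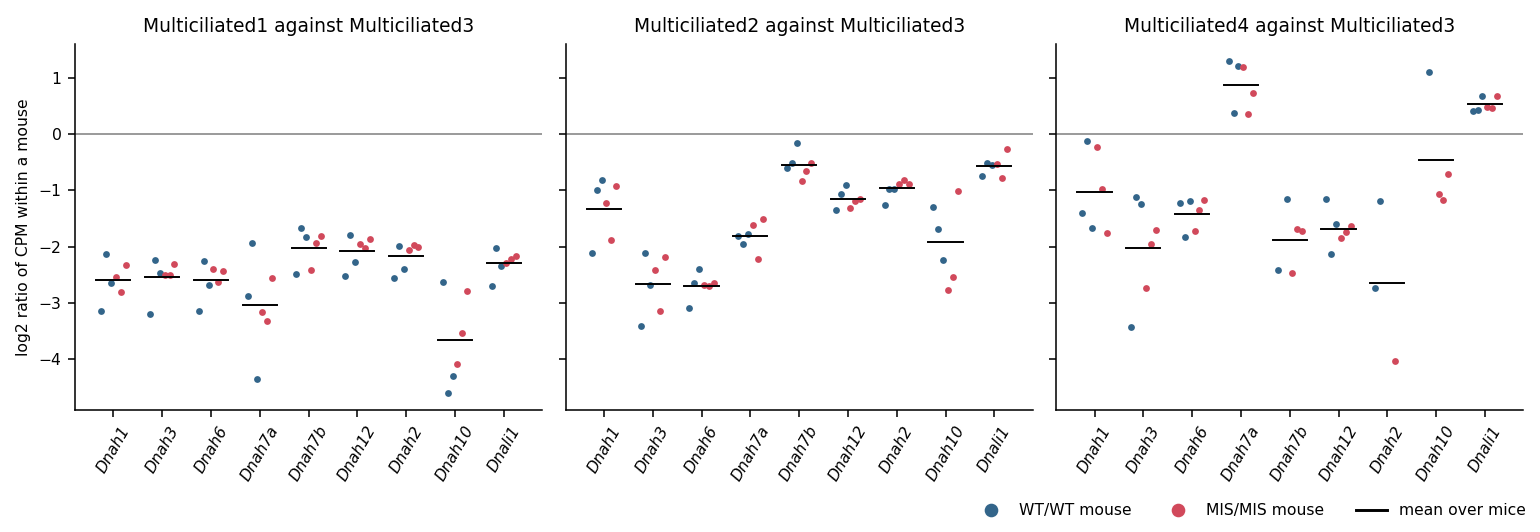
Log2 ratio of CPM in Multiciliated1, Multiciliated2 and Multiciliated4 to CPM in Multiciliated3 of the same mouse, with a point per mouse (mice without a UMI are left out) and a line at the mean. In Multiciliated2, Dnah3 and Dnah6 have the lowest means and Dnah7b and Dnali1 the highest, and in Multiciliated4 every point of Dnah7a and Dnali1 lies above 0.

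In basal and secretory cells *Dnah7b* stood apart from the other genes. In basal cells it measured 2.72, 2.49 and 1.78 CPM in WT1, WT2 and WT3, and 2.52, 3.04 and 3.18 in MT1301, MT1306 and MT1383. *Dnah7a* in the same sums averaged 0.133 ± 0.0800 CPM, *Dnah12* 0.874 ± 0.452 and *Dnali1* 1.01 ± 0.379. *Dnah7b* was thus higher than each of these in every mouse, although *Dnah12* and *Dnali1* were above it in every mouse in Multiciliated3. It took 46.0% of the 1875 member UMIs of basal cells (range over mice 34.2% to 54.3%) and 42.1% of the 2063 of secretory cells (32.2% to 48.2%), against 6.24% of the 71297 of Multiciliated3 (5.89% to 6.61%). Neither of the first ranges overlapped that of Multiciliated3. The UMIs of *Dnah7b* were spread over 779 basal cells with at most 3 in any of them. In secretory cells 10.1% of cells held a *Dnah7b* UMI against 0.517% for *Dnah7a*, at a median of 32690 UMIs. Neuroendocrine cells and ionocytes, with few cells, did not show this order. *Dnali1* (7.91 CPM) and *Dnah3* (6.01) averaged above *Dnah7b* (3.66) in neuroendocrine cells. *Dnah3* (8.05) and *Dnah12* (3.85) averaged above *Dnah7b* (2.68) in ionocytes.

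By cell type, *Dnah7b* averaged between 1.96 CPM in Basal1 and 4.44 in Basal3, and the ranges of mice overlapped between all neighbours in the order of these types. Over the 10 basal and secretory types it was at 3.21% to 7.04% of its Multiciliated3 level. *Dnah1*, *Dnah3*, *Dnah6*, *Dnah12* and *Dnali1* were under 1% in each of these types, with a highest value of 0.843% for *Dnah12* in Secretory2. The 3 genes with the fewest UMIs passed 1% in some types, from the mice with a UMI alone. *Dnah7a* was at 1.20% and 1.27% in Basal5 and Basal6, and *Dnah10* at 1.04% to 2.72% in 6 basal types. *Dnah2* was at 1.47% and 1.40% in Basal6 and Basal8, and at 9.27% in Basal7, where 1 mouse gave a value.

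**Figure D3:**
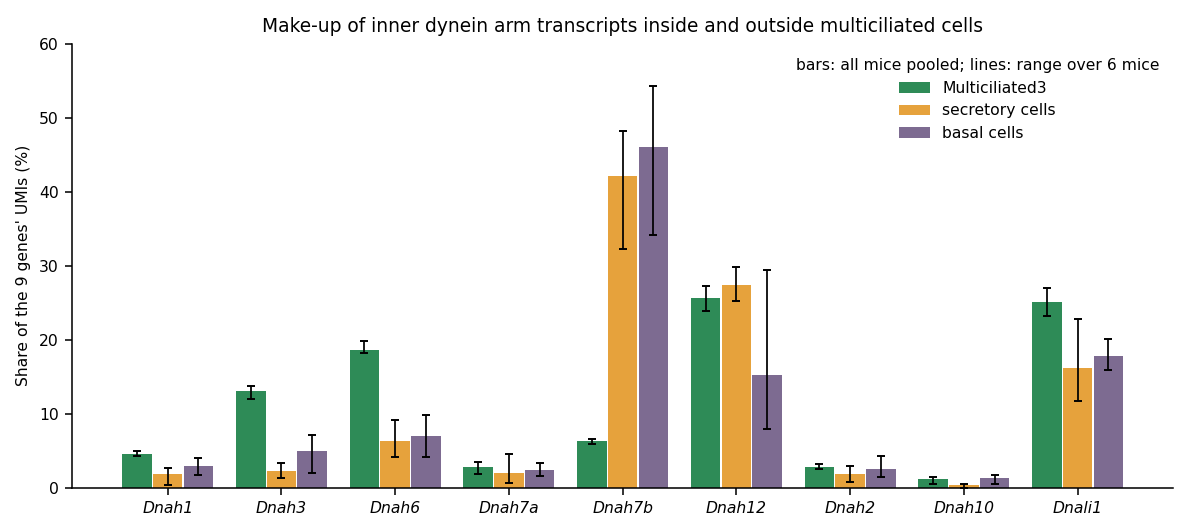
Share of the UMIs of the 9 genes (%) that each gene gave in Multiciliated3, secretory and basal cells, with bars for all mice pooled and lines for the range over the 6 mice. Dnah7b gives 6.24% in Multiciliated3 and 46.0% in basal cells, and these ranges do not overlap.

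Over the 16 cell types the 9 genes had similar profiles, with Pearson correlations of log2(CPM + 1) between pairs from 0.80 (*Dnah7a* and *Dnah2*) to 0.98 (*Dnah3* and *Dnah6*). Among 9743 genes that reached 20 CPM in some type, those most like the mean of the 9 were *Cfap47*, *Armc2*, *Ak9*, *Wdr63* and *Kif27* (correlations 0.993 to 0.995). *Wdr63* encodes an intermediate chain of the f-type arm. The nearest single gene was *Ccdc40* for *Dnah1*, *Cfap69* for *Dnah3*, *Rsph4a* for *Dnah6*, *Mak* for *Dnah12*, *Ttll6* for *Dnah2* and *Fbxl13* for *Dnah10*. It was *Cdkl1* for *Dnah7a* and *Tekt4* for *Dnali1*, both highest in Multiciliated4, and the regulator *Trp73* for *Dnah7b*. These correlations were computed on UMIs pooled over mice, rest on types that share libraries and are given as a description.

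The comparison of genotypes asked whether a missense assembly factor goes with a different level of inner dynein arm transcripts. None of the genes passed an adjusted p of 0.05 (limma voom, Benjamini-Hochberg over all genes tested). In all multiciliated cells 0 of 9 passed, against 0.00704% of all genes, where the only such gene was *Wdfy1*. In the types 0 of 8 tested passed in Multiciliated1 (0.00874% of all genes), 0 of 9 in Multiciliated2 (0.00857%), 0 of 9 in Multiciliated3 (0.0229%) and 0 of 4 tested in Multiciliated4 (0.159%). The p-values set the difference between genotypes against the spread of these 6 mice within genotypes, which limma moderates with that of all genes. The point estimates were nevertheless mostly above 0 in *MIS/MIS* cells. In all multiciliated cells 9 of 9 were above 0 (51.5% of all genes), with a median log2 fold change of 0.31 against 0.0066 over all 14206 genes, and 2 of 9 had an unadjusted p under 0.05 (4.32% of all genes). *Dnaaf5* itself, whose transcript a missense allele need not alter, had a log2 fold change of 0.28 (SE 0.11, adjusted p = 0.896 by limma voom). Within types it was 0.53 (SE 0.15) in Multiciliated1, 0.18 (SE 0.15) in Multiciliated2 and 0.13 (SE 0.09) in Multiciliated3 (lowest adjusted p = 0.978 by limma voom).

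*Dnah10* had the largest estimate. Its level in Multiciliated3 was 9.48, 5.68 and 4.26 CPM in WT1, WT2 and WT3, and 10.5, 14.7 and 15.3 in MT1301, MT1306 and MT1383. The groups did not overlap, although WT1 and MT1301 were close. These values rest on 59, 38 and 39 UMIs in the *WT/WT* mice and 122, 231 and 380 in the *MIS/MIS* mice. The log2 fold change was 1.23 (SE 0.28, 95% interval 0.58 to 1.87), with an adjusted p of 0.978 and an unadjusted p of 0.0021 by limma voom. With cells thinned to 5000 UMIs it was 0.40 (unadjusted p = 0.266 by limma voom). In all multiciliated cells the log2 fold change was 1.35 (SE 0.36, adjusted p = 0.896 by limma voom). There it was 0.89 with equal type composition and 0.64 with thinned cells (unadjusted p = 0.11 by limma voom).

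*Dnah1* was the only other member whose groups did not overlap. It measured 40.5, 39.6 and 37.7 CPM in Multiciliated3 of the *WT/WT* mice and 40.6, 47.6 and 47.4 in the *MIS/MIS* mice, so that MT1301 lay next to WT1. Its log2 fold change was 0.21 (SE 0.09, 95% interval 0.0017 to 0.43, adjusted p = 0.978 by limma voom), and -0.029 with cells thinned to 5000 UMIs. Groups with *MIS/MIS* above *WT/WT* and no overlap made up 4.91% of all genes tested in Multiciliated3 and 6.84% in all multiciliated cells, where again *Dnah1* and *Dnah10* were the 2 members. In Multiciliated1, Multiciliated2 and Multiciliated4 no member had such groups (0 in each), against 5.47%, 4.76% and 4.36% of all genes.

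The other genes overlapped between genotypes. *Dnali1* in Multiciliated3 measured 230.3, 235 and 226 CPM in the *WT/WT* mice and 216, 243 and 262 in the *MIS/MIS* mice, for a log2 fold change of 0.058 (95% interval -0.12 to 0.24). *Dnah2*, which shares the f-type arm with *Dnah10*, measured 25.4, 27.8 and 26.1 CPM against 23.3, 26.5 and 28.1, for a log2 fold change of -0.013 (95% interval -0.24 to 0.21), and of -0.52 with cells thinned to 5000 UMIs. *Dnah6* and *Dnah12* had log2 fold changes of 0.11 (-0.073 to 0.29) and 0.076 (-0.22 to 0.38), *Dnah3* and *Dnah7b* of 0.15 (-0.16 to 0.46) and 0.17 (-0.081 to 0.42), and *Dnah7a* of 0.31 (-0.13 to 0.74). The intervals of *Dnah2*, *Dnah6* and *Dnali1* reached no further than 0.29 in either direction. MT1301 was the lowest of the 3 *MIS/MIS* mice for all 9 genes in Multiciliated3.

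**Figure D4:**
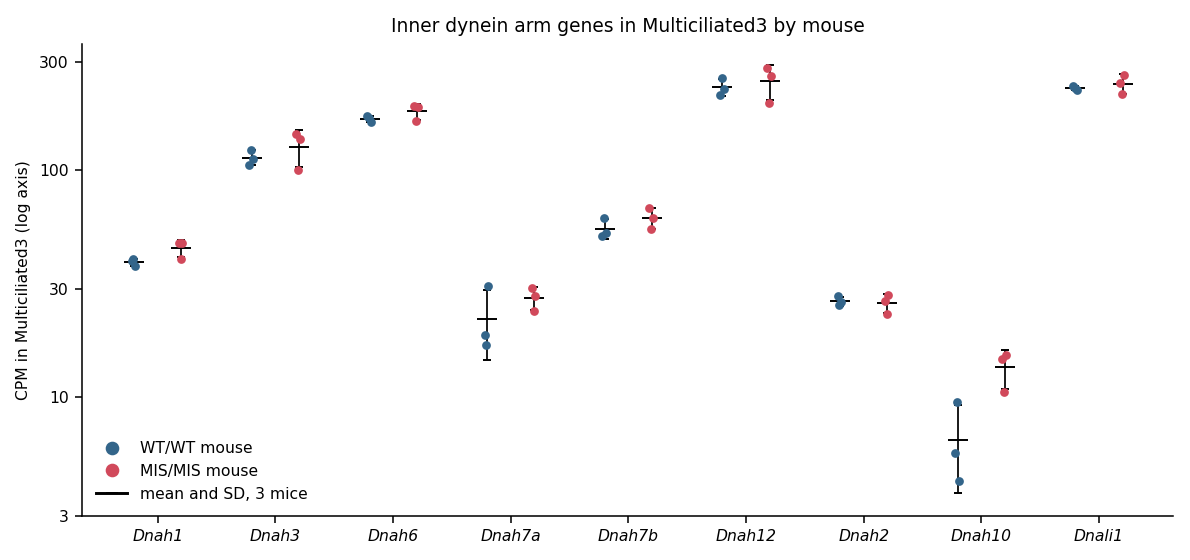
Level of each inner dynein arm gene in Multiciliated3 (CPM, log axis), with a point per mouse and the mean and SD of 3 mice per genotype. The MIS/MIS mice lie above the WT/WT mice without overlap for Dnah1 and Dnah10, and the groups overlap for the other genes.

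The estimates were not evenly spread over mice or types. In all multiciliated cells the median deviation of the 9 genes from the *WT/WT* mean was 0.56 on the log2 scale in MT1306, 0.20 in MT1383 and -0.016 in MT1301. Multiciliated3 cells made up 70.2% of the multiciliated cells of MT1306, 55.0% in MT1383, 58.3% in MT1301 and 43.0% to 58.9% in the *WT/WT* mice. With the same number of cells of each type drawn from every mouse (82, 55 and 173 of Multiciliated1, Multiciliated2 and Multiciliated3) the median log2 fold change was 0.090 in place of 0.31. Without MT1306 it was 0.14.

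Within types the median log2 fold change was 0.15 in Multiciliated3 (8 of 9 above 0), 0.28 in Multiciliated1 (8 of 8 tested) and 0.14 in Multiciliated2 (7 of 9). The Multiciliated2 median turned to -0.067 without MT1383 (3 of 8) and to -0.11 with thinned cells (3 of 6), and was 0.036 without WT1. The Multiciliated1 median was 0.13 without MT1383 and without WT1 (7 of 8 in each). In Multiciliated4, where 4 genes had enough counts, it was -0.059 (2 of 4), and it ranged from -0.064 to 0.16 over the alternatives. An unadjusted p under 0.05 by limma voom was seen for 2 of 9 in Multiciliated3 (4.5% of all genes), and for 0 in Multiciliated1 (3.97%), Multiciliated2 (3.49%) and Multiciliated4 (5.53%). The share of all genes above 0 was 49.2% in Multiciliated3, 51.8% in Multiciliated1, 48.8% in Multiciliated2 and 49.7% in Multiciliated4. The genotype difference itself did not pass as different between Multiciliated1 and Multiciliated3 or between Multiciliated2 and Multiciliated3 for any of the 9 genes (limma voom interaction, lowest adjusted p = 0.891), where 0.0377% and 0.0453% of all genes passed. Multiciliated4 was not part of that test.

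**Figure D5:**
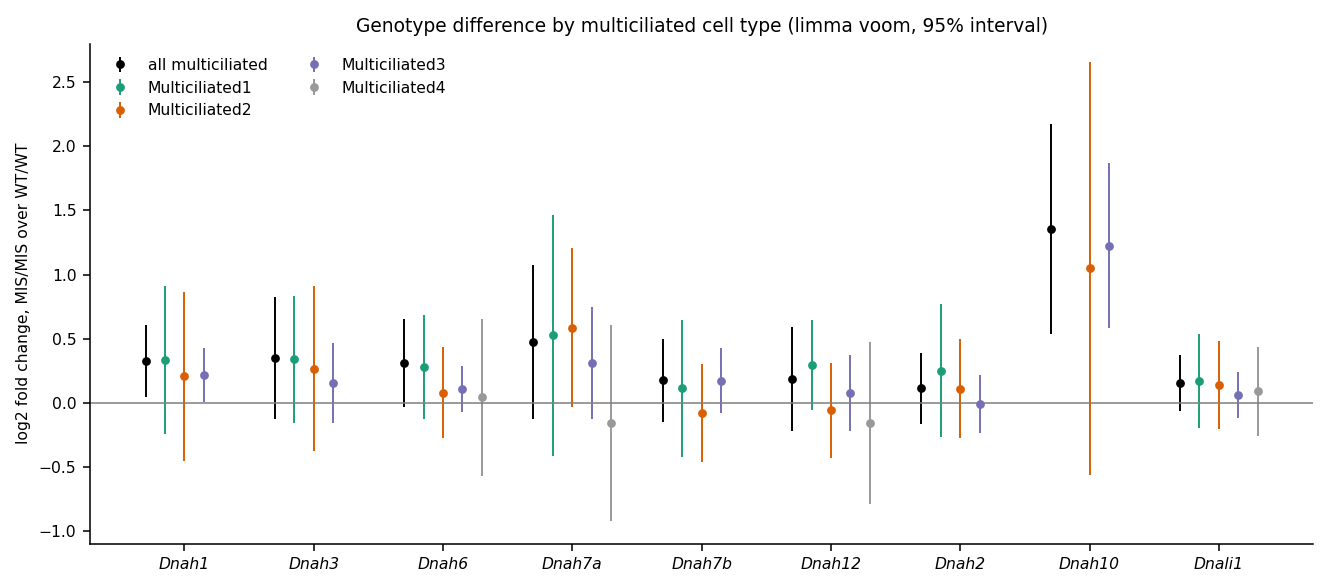
Log2 fold change of MIS/MIS over WT/WT for each inner dynein arm gene in all multiciliated cells and in each multiciliated type, with 95% intervals from limma voom. Only the intervals of Dnah1 and Dnah10 in all multiciliated cells and in Multiciliated3 leave out 0, and genes with too few counts in a type have no point.

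Markers of other cells were read in the same sums. The 4 basal markers together gave 141 to 257 CPM in Multiciliated3 of the *WT/WT* mice and 87.2 to 114 in the *MIS/MIS* mice, and 869 to 1153 against 546 to 718 in all multiciliated cells. They did not overlap in Multiciliated1 (2476 to 2977 against 1825 to 2395) or in Multiciliated2 (613 to 904 against 421 to 598) either. The 5 secretory markers overlapped between genotypes in Multiciliated3 (98.4 to 243 CPM against 111 to 344). The 5 multiciliated markers overlapped in Multiciliated3 (5883 to 6896 CPM against 6423 to 6589) and in Multiciliated1, but not in Multiciliated2 (2121 to 2270 against 2392 to 2939) or in all multiciliated cells (3947 to 4040 against 4391 to 5353). The 4 early markers overlapped in all multiciliated cells and in Multiciliated1, Multiciliated2 and Multiciliated3. In Multiciliated4, with its few cells, the early markers did not overlap (35.6 to 49.5 CPM against 51.4 to 54.8). The basal markers overlapped there (36.7 to 122 against 28.0 to 115). Immune *Ptprc* was at 0 in Multiciliated3 but not in Multiciliated1 or Multiciliated2. The sum of *Ptprc*, *Col1a1* and *Pecam1* was 0.515 to 1.09 CPM over the mice in Multiciliated3. The part of these markers in the estimates above was not tested.

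Genes that act with the inner arms showed no calls either, in all multiciliated cells, where 0.00704% of all genes passed and 51.5% were above 0. Of 7 other axonemal heavy chain genes 5 had enough counts, and 0 passed, with 4 above 0 and a median log2 fold change of 0.30. Within Multiciliated3 their median was 0.13 (5 of 5 above 0). Those with the lowest p were the outer arm heavy chain genes *Dnah5* (0.30, SE 0.14) and *Dnah9* (0.34, SE 0.15), both at an adjusted p of 0.896 by limma voom, which stood at 0.097 and 0.16 in Multiciliated3.

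Of 11 genes for inner arm subunits and anchors 0 passed in all multiciliated cells, with 10 above 0 and a median of 0.24, against 0.11 in Multiciliated3 (9 of 11). *Cfap100*, which encodes a part of the complex that tethers the f-type arm, was at 0.42 (SE 0.17), and at 0.20 in Multiciliated3. *Cfap57* was at 0.34 (SE 0.14), and at 0.15 in Multiciliated3. Of 9 regulators of multiciliated cells 0 passed, with 4 above 0 and a median of -0.065. This direction turned within types, with medians of 0.31 in Multiciliated1 (8 of 8 tested) and 0.13 in Multiciliated3 (7 of 8 tested), and of -0.017 in Multiciliated2 (4 of 9). *Ccno*, an early gene, was at -0.48 (SE 0.29) in all multiciliated cells, but at 0.92 (SE 0.36) in Multiciliated1, 0.28 (SE 0.20) in Multiciliated3 and -0.066 (SE 0.13) in Multiciliated2. *Trp73* was at 0.34 (SE 0.11), and between 0.21 and 0.81 in Multiciliated1, Multiciliated2 and Multiciliated3. The shares of the multiciliated types differed between mice, as given above, and their part in these lists was not tested.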

How the data were processed

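Droplet 3' libraries (single cell v2 protocol, 10x Genomics, per the labels) were made from cultures of 6 mice. The authors processed the reads with Cell Ranger (7.1.0, with mm10 as genome, in the submitters' processing notes, whereas the methods of the study name an older version), removed cells outside 2500 to 7500 genes or over 25% mitochondrial content as possible doublets or damaged cells, and clustered the rest with Seurat. They deposited whole UMI counts for every gene and cell, and the name of each cell's type. The separator of the table is a mistyped tab, for which reason its values were not recorded as counts and limma voom took the place of the count test of the plan. Whether reads in introns were counted, for which the default differs between versions, is not given in the sources used here. The stated filter leaves 23216 of the 23871 cells.

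Counts were summed per mouse and type, and a mouse with under 5 cells of a type gave no value. Genotypes were compared with limma 3.58.1 (R 4.3.3), TMM factors (trims 0.3 and 0.05) and Benjamini-Hochberg adjustment over all genes tested, with a threshold of 0.05. Genes needed 10 counts, scaled to the median library, in 3 mice and 15 in total. Where a mouse was left out, the genotype fits needed only as many mice as the smaller group held. The interaction fit took the mouse as a block. The multiciliated sums held 13516848 to 53171909 UMIs on the genes tested, those of Multiciliated4 73725 to 553820. The steps were tested on simulated data. Alternatives were other scalings, no low-count filter, thinned cells, equal type composition and each mouse left out. Members and lists were chosen with earlier results of these data known. All members are named, and from each list the genes past the threshold or else the 2 with the lowest p. Likeness was computed on log2(CPM + 1), with CPM from UMIs pooled over all cells of a type across mice. No doublet caller was run here. Other steps used Python 3.11.15.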

Additional observations from a re-analysis of the deposited data

How the results depend on the processing

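In none of 94 fits over all settings did a member pass an adjusted p of 0.05, and the lowest was 0.275 (limma voom), for *Dnah10* in Multiciliated3 without MT1301. The settings were upper-quartile and median-of-ratios scaling, no filter on low counts, thinning to 5000 UMIs, the stated cell filters, equal type composition and each mouse left out. limma-trend and fits without Multiciliated4 or Multiciliated1 were chosen after seeing the data. The second count tool of the plan was not run, as the table was not recorded as counts. Thinning turned *Dnah2* in all multiciliated cells to -0.34 and *Dnah1* in Multiciliated3 to -0.029 on the log2 scale, and lowered the median number of members seen in a Multiciliated3 cell from 6 to 3, with fewer UMIs a cell by construction. With 1 mouse left out, *Dnah2* in Multiciliated3 ranged from -0.064 to 0.046 (above 0 without WT2 or MT1301), and *Dnah12* from -0.031 to 0.22 in Multiciliated3 and from -0.011 to 0.37 in all multiciliated cells (below 0 without MT1306 in both). The cause of the reversals was not tested. The log2 fold change of *Dnah10* in all multiciliated cells ranged from 0.64 to 1.67, and its unadjusted p stayed under 0.05 in 14 of 15 settings and that of *Dnah1* in 9 of 15 (limma, fitted over all genes). The median over members ranged from 0.090 to 0.41 in all multiciliated cells, from 0.13 to 0.44 in Multiciliated1 and from -0.11 to 0.23 in Multiciliated2. No paired analysis was possible because *MIS/MIS* cells carry animal numbers found in neither the sample titles nor the *WT/WT* group. Multiciliated4, with 6 cells in WT2, limits what could be seen in that type.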
